A study of Mus musculus with 2 samples.

Results

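The intercalated disc joins heart muscle cells end to end. Here it is represented by 10 mouse genes, 3 of them connexins (Gja1, Gja5, Gjc1), 5 of them desmosome genes (Dsp, Pkp2, Jup, Dsg2, Dsc2) and 2 of them genes of the adherens junction (Cdh2, Ctnna3). Members were all accessible regions (peaks) that the authors' table assigned to the Ensembl identifier of each gene, which was found from the gene's position. This gave 49 of 58076 peaks, and every gene had at least 1. ATAC-seq, an assay that maps open DNA through insertions of the Tn5 transposase, had been run on nuclei of hearts. There was 1 library from mice with a cardiac-specific deletion of Ythdc1, the gene of an m6A-binding protein of the nucleus, and 1 from Ythdc1flox/flox mice, which carry the floxed gene undeleted. Both groups were 15 days of age and on normal chow. The Cre driver, the strain and the number of animals in each library are not given in the labels. With 1 library per genotype no difference below has a replicate check and no p-value was computed. Intervals are exact 95% intervals of the ratio of knockout to control and cover counting error only.

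Connexins form the gap junction channels through which the action potential passes between cardiomyocytes. Desmosomes tie the intermediate filaments of neighbouring cells together, and adherens junctions tie their actin filaments. In the mature heart the components of desmosomes and adherens junctions mix in a hybrid zone, the area composita, and inherited mutations of human desmosome genes are a known cause of arrhythmogenic cardiomyopathy. After birth these proteins gather from the sides of the myocyte to its ends.

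The deposited counts summed to 6466537 in the knockout and 6755590 in the control library. The median peak held 60 counts in the knockout and 65 in the control. Levels are given as CPM, the counts of a peak scaled to the library's counts in all peaks, per kb of peak where genes are compared, and differences as the log2 ratio of CPM after adding 0.5 counts. All 8 cardiomyocyte markers checked against the heart label (Myh6, Tnnt2, Tnni3, Actn2, Ryr2, Myl2, Ttn, Pln) had a peak within 1 kb of a start site. The strongest such peaks of Myl2 and Pln were called in the control alone. All 8 endothelial and all 6 fibroblast markers had such a peak too, so the check does not tell cell types apart.

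Promoters of Gja1, Ctnna3, Jup and Dsp are printed first, as the RefSeq window (GRCm38.p6) from 250 bases before to 50 bases after the start site, on the coding strand. They are shown because all 5 windows were covered at least in part by a peak of their gene and include promoters on both sides of a ratio of 1. The promoter windows of Gjc1, Pkp2, Dsg2, Dsc2 and Cdh2 were not used here, and Gja5 had no peak at its promoter. Gja1 lies at chr10:56377050-56377349 on the plus strand, the upstream Ctnna3 start at chr10:63429848-63430147 and the next Ctnna3 start at chr10:63457261-63457560, both on the plus strand, Jup at chr11:100397741-100398040 on the minus strand and Dsp at chr13:38151044-38151343 on the plus strand. Capitals mark every match, on either strand, to the motifs named after the sequences.
Gja1: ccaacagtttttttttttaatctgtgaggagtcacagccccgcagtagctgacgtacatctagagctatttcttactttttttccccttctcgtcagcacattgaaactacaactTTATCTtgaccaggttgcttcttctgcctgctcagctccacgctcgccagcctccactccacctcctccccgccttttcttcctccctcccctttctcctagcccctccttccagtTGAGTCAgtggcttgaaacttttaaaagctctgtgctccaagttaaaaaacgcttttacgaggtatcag
Ctnna3 upstream start: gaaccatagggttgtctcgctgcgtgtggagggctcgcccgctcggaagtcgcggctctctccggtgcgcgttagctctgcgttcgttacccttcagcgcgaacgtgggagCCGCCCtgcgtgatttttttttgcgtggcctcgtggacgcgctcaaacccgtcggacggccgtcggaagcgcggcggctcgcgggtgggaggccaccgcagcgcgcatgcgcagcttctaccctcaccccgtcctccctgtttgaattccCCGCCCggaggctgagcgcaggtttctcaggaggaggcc
Ctnna3 next start: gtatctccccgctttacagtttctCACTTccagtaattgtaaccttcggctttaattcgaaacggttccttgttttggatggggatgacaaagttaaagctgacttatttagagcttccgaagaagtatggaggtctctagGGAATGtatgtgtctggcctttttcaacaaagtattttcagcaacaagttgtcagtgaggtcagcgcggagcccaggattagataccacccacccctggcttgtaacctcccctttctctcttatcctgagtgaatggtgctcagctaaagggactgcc
Jup: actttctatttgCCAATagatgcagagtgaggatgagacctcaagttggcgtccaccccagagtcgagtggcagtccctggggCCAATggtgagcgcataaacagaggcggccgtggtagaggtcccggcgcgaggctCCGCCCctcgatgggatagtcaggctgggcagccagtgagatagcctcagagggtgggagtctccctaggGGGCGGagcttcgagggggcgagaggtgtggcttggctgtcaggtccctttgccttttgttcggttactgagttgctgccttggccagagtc
Dsp: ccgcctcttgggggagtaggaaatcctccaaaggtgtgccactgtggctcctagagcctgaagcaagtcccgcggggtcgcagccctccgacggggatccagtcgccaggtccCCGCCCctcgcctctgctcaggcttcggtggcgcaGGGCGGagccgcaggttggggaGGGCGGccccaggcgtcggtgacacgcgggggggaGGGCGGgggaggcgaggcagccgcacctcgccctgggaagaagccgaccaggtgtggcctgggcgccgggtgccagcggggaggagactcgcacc

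The motifs searched were those of AP-1, GATA, TEAD and NKX2-5 factors, the GC box, the CCAAT box, and the MEF2 and CArG box motifs, and the matches found in these windows did not overlap each other. Gja1 held an AP-1 match (TGANTCA) at position -19 from the start site and inside its promoter peak, and 7.81% of 32851 mouse promoter windows of this length hold such a match. It also held a GATA match (AGATAA) at -135, again inside the peak, as 11.2% of all windows do somewhere. The next Ctnna3 start held a TEAD match (GGAATG) at -109 inside its peak, where 14.7% of windows have this motif. An NKX2-5 match (AAGTG) at -226 of the same window lay outside the peak, and 46.4% of windows hold 1 or more. GC boxes (GGGCGG), present in 35.7% of windows, numbered 2 at the upstream Ctnna3 start, 2 at Jup and 4 at Dsp. Jup also held 2 matches to the CCAAT box, whose name gives its letters and which occurs in 37.4% of windows. The MEF2 (3.19% of windows) and CArG box (1.63%) letters were in none of the 5. Counts of the CpG dinucleotide separated the same windows, with 39 at the upstream Ctnna3 start, 27 at Dsp and 14 at Jup, against 8 at Gja1 and 7 at the next Ctnna3 start, where the median of all windows is 7. Those with 14 or more CpG had log2 ratios from -0.22 to 0.34 at their peak, and the pair with 8 or fewer had -0.81 and -0.73. The split was drawn on these same windows, and the 14 CpG of Jup lie between the quartiles of all windows (3 and 20). It is a description of 5 windows of 4 genes and does not cover the promoters of Pkp2 and Dsc2, whose ratios are also below 1. A relation of the ratio to CpG over all promoters was not tested.

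Of the 49 peaks, 28 had a log2 ratio below 0 (57.1%), where 54.1% of all peaks did. The median was -0.20 over the members, against -0.05 over all peaks. At least 2-fold higher in the knockout were 6 (background 6.09% of all peaks) and at least 2-fold lower were 2 (background 8.96%). On the authors' RPM scale, which lowers each log2 ratio by about 0.17, these were 3 and 2. The 2-fold rule is a rule of size and not a test. Of the 6 higher peaks 4 belonged to Cdh2, and without this gene 2 of 40 were higher and 2 lower. All 6 were called by the authors in the knockout library alone, a class in which 35.3% of all peaks are at least 2-fold higher, as a call in that library alone selects for high counts in it. Both lower peaks were called in the control alone, where 28.9% of all peaks are at least 2-fold lower. Within 1 kb of a start site 1 of 16 member peaks was at least 2-fold higher (2.7% of all such peaks) and 1 lower (2.87%), and elsewhere 5 of 33 were higher (7.79%) and 1 lower (12%). Among the 27 member peaks called in both libraries none passed 2-fold (0.851% of all such peaks were higher and 1.02% lower), and their log2 ratios ran from -0.81 to 0.42.

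**Figure D1:**
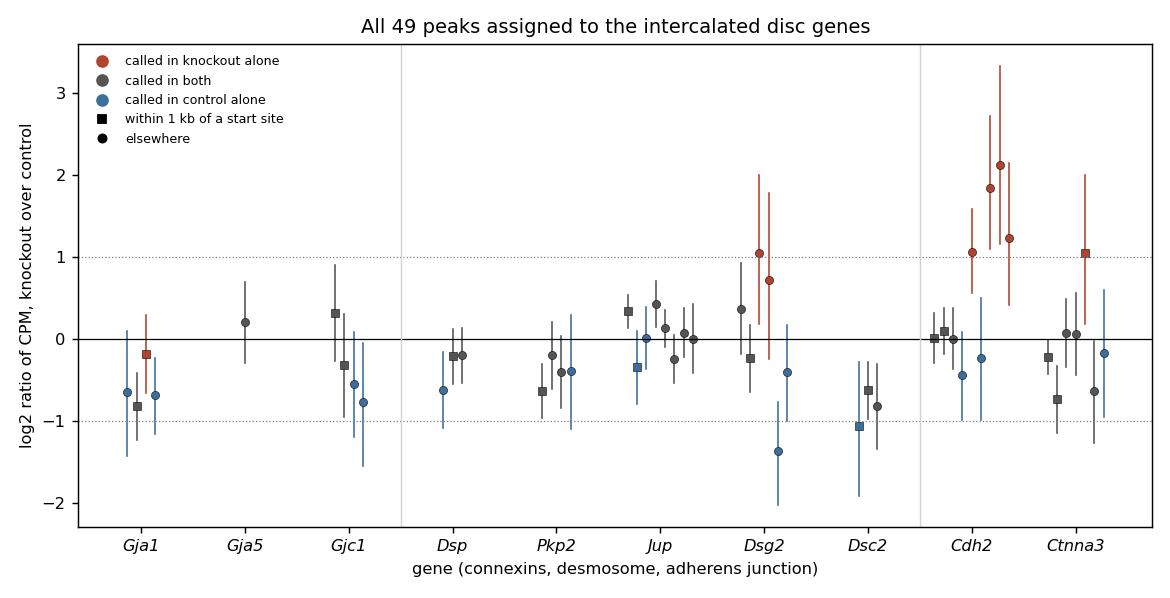
Log2 ratio of CPM, knockout over control, of each of the 49 peaks, grouped by gene and ordered along each gene in the direction of transcription. Points are single peaks, bars are exact 95% counting intervals, colours give the library in which the authors called the peak, squares lie within 1 kb of a start site, and dotted lines mark a 2-fold difference. All peaks of Gja1, Dsp, Pkp2 and Dsc2 lie below 0, and 4 peaks of Cdh2 lie above 1.

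**Figure D2:**
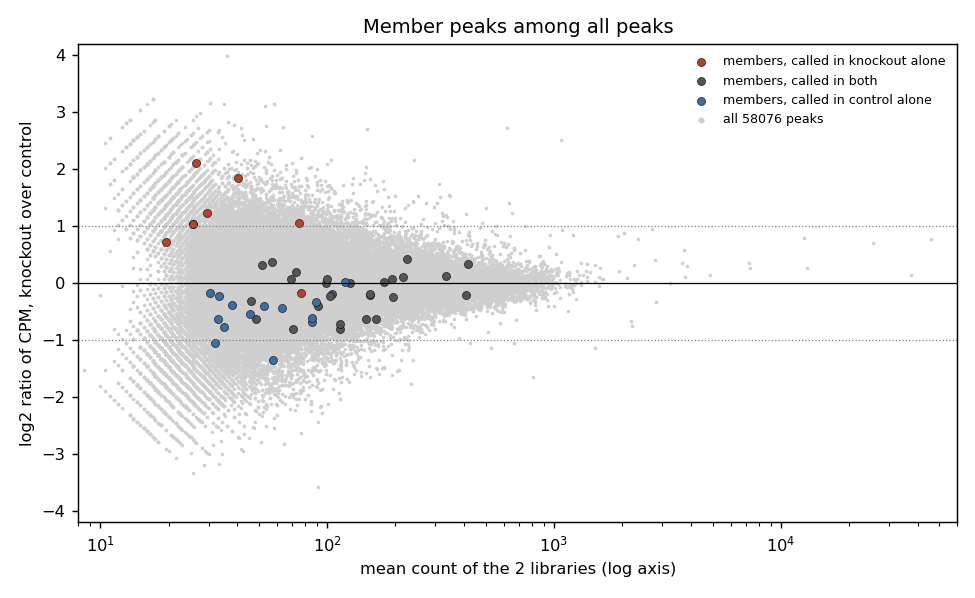
Log2 ratio of CPM, knockout over control, against the mean count of the 2 libraries (log axis) for all 58076 peaks in grey and the 49 member peaks in colour by the library in which they were called. Dotted lines mark a 2-fold difference, and the 6 members above the upper line, 2 of which coincide, were all called in the knockout alone.

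Gja1 (ENSMUSG00000050953) encodes connexin 43, the main gap junction protein of the ventricle. All 4 of its peaks had lower levels in the knockout, with 239 counts in the knockout and 379 in the control over the gene, a ratio of 0.659 (0.558 to 0.777). Its promoter peak (chromosome 10, 56377098 to 56377452) held 80 counts in the knockout and 147 in the control, or 34.8 and 61.3 CPM per kb. The ratio of 0.569 had an interval of 0.427 to 0.752, and this log2 ratio of -0.81 was the lowest among the strongest promoter peaks of the 9 members that had one. A peak 14.3 kb from the gene's start, past its RefSeq end but in an intron of a longer annotated transcript and called in the control alone, held 64 counts in the knockout and 108 in the control (ratio 0.619, 0.447 to 0.851). The peak at 56369149, upstream of the gene, also called in the control alone, had 25 and 41 counts, with an interval of 0.371 to 1.07 that holds 1. The peak at the internal start, 1.81 kb into the gene, was the nearest to equal, with 70 counts in the knockout and 83 in the control (0.881, 0.632 to 1.23), although it was called in the knockout alone.

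The other connexins of the heart muscle and its conduction system did not share one direction. Gja5 (ENSMUSG00000057123), connexin 40 of the atria, the fast conduction system and arterial endothelium, had a single assigned peak, which the table places at -6503 bp from the nearest start, and none at a promoter. It held 76 counts in the knockout and 69 in the control (chromosome 3, 97025284 to 97025913, ratio 1.15, 0.820 to 1.62). Gjc1 (ENSMUSG00000034520), connexin 45 of the nodes and early heart, had 157 counts in the knockout and 199 in the control over 4 peaks (0.824, 0.664 to 1.02), and over the 2 peaks called in both libraries the log2 ratio was 0.02 in place of -0.28. Its strongest promoter peak had 56 and 47 counts (1.24, 0.830 to 1.88) and the neighbouring promoter peak 40 and 52 (0.804, 0.518 to 1.24), so neither differed beyond counting error. The intron peak 18.3 kb from its start had 25 counts in the knockout and 45 in the control (0.580, 0.341 to 0.967). The strongest peak outside its promoters, 3.19 kb into the gene, had 36 and 55 counts (0.684, 0.436 to 1.06).

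Dsc2 (ENSMUSG00000024331), desmocollin 2, is a desmosomal cadherin and had the lowest ratio of summed counts among the 10 genes. Its 3 peaks held 184 counts in the knockout and 320 in the control, a ratio of 0.601 (0.498 to 0.722). The strongest promoter peak (chromosome 18, 20058754 to 20059386) had 114 and 184 counts (0.647, 0.508 to 0.822). A smaller peak over the start site itself had 20 counts in the knockout and 44 in the control (0.475, 0.265 to 0.823), which makes it one of the 2 lower member peaks, and the intron peak 6.90 kb from the start had 50 and 92 (0.568, 0.394 to 0.810). All 3 intervals lay below 1, and the interval of the summed counts overlapped that of Gja1.

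Dsg2 (ENSMUSG00000044393), desmoglein 2, is the partner desmosomal cadherin and lies on the same chromosome. Its promoter peak had 92 counts in the knockout and 113 in the control (chromosome 18, 20557912 to 20558544, ratio 0.851, 0.639 to 1.13). That peak also overlaps the long noncoding RNA gene Gm46630. Within the introns of Dsg2 the differences went both ways. The peak 36.5 kb from the start, called in the control alone, had 31 counts in the knockout and 84 in the control (20594408 to 20594802, 0.386, 0.247 to 0.588), the lowest ratio of the 49. The peak 8.65 kb from the start, called in the knockout alone, had 34 and 17 counts (2.09, 1.14 to 3.99). Summed over 6 peaks the gene had 288 counts in the knockout and 341 in the control, and its interval of 0.752 to 1.04 holds 1.

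Pkp2 (ENSMUSG00000041957), plakophilin 2, is an armadillo protein of the desmosomal plaque. All 4 peaks were lower in the knockout, with 329 counts in the knockout and 466 in the control (0.738, 0.639 to 0.851). The promoter peak (chromosome 16, 16213023 to 16213542) carried the largest part of the difference, with 125 counts in the knockout and 202 in the control, or 37.2 and 57.5 CPM per kb (0.646, 0.513 to 0.812). Each of the other 3, from 2.59 to 17.3 kb into the gene, had an interval that holds 1, with ratios from 0.759 to 0.871.

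Dsp (ENSMUSG00000054889), desmoplakin, links the plaque to intermediate filaments. Its 3 assigned peaks were lower in the knockout, with 346 counts against 443 in the control (0.816, 0.707 to 0.941). The promoter peak (chromosome 13, 38151076 to 38151667) had 140 and 169 counts (0.865, 0.687 to 1.09), and the intron peak 19.6 kb from the start had 140 and 168 (0.871, 0.691 to 1.10). Only the peak 2.81 kb upstream, called in the control alone, had an interval below 1, with 66 counts in the knockout and 106 in the control (0.650, 0.471 to 0.893).

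Jup (ENSMUSG00000001552), plakoglobin, is shared by desmosomes and adherens junctions, and per kb of peak it had the most accessible promoter of the members. The promoter peak (chromosome 11, 100397372 to 100398086) held 458 counts in the knockout and 379 in the control, or 99.1 and 78.5 CPM per kb, a ratio of 1.26 (1.10 to 1.45). It ends 30 bp from the long noncoding RNA gene Gm12348. The peak 2.47 kb from the start had 252 counts in the knockout and 196 in the control (1.34, 1.11 to 1.63). The strongest peak outside promoters, 6.51 kb from the start, had 342 and 326 counts (1.10, 0.939 to 1.28), and the remaining 5 had log2 ratios from -0.34 to 0.08. Over 8 peaks the gene had 1712 counts in the knockout and 1633 in the control (1.10, 1.02 to 1.17). That direction turns on the RPM scale, with a log2 ratio of -0.04. The promoter peak stays above 0, at 0.16 in place of 0.34, but no counting interval was computed on that scale.

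Per kb of the strongest promoter peak, the level in the knockout was highest at Jup (99.1 CPM per kb), followed by Ctnna3 (55.9), Cdh2 (38.2), Pkp2 (37.2), Dsp (36.6), Gja1 (34.8), Gjc1 (30.3), Dsc2 (27.9) and Dsg2 (22.5). In the control the order was Jup (78.5 CPM per kb), Ctnna3 (65.0), Gja1 (61.3), Pkp2 (57.5), Dsc2 (43.0), Dsp (42.3), Cdh2 (35.6), Dsg2 (26.4) and Gjc1 (24.3). Jup and Ctnna3 thus lead in each library, whereas Gja1, Dsc2 and Dsg2 stand lower in the order of the knockout and Cdh2, Dsp and Gjc1 higher. Without division by width, the Ctnna3 peak was above that of Jup in the control (66.2 against 56.1 CPM) but not in the knockout (56.9 against 70.8 CPM). With 1 library each, no spread is available to separate neighbours in either order.

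**Figure D3:**
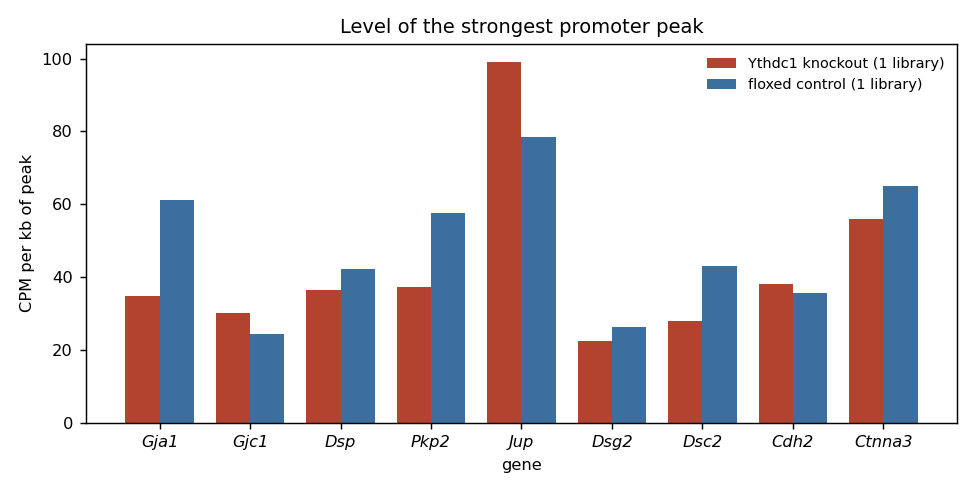
Level in CPM per kb of the strongest peak within 1 kb of a start site, for the 9 members that had such a peak, in the knockout (left bar) and the control (right bar), 1 library each and therefore without error bars. Jup has the highest level in each library, and Gja1, Pkp2 and Dsc2 show the widest gaps below the control.

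Cdh2 (ENSMUSG00000024304), N-cadherin, is the cadherin of the cardiac adherens junction and is also made by fibroblasts and mural cells. At its start the libraries differed by less than the counting error. The strongest promoter peak (chromosome 18, 16808146 to 16809027) had 218 counts in the knockout and 212 in the control (1.07, 0.885 to 1.30), its neighbour over the start site 175 and 181 (1.01, 0.816 to 1.25), and the peak 2.22 kb into the gene 124 and 129 (ratio 1.004, 0.778 to 1.295). The other 6 peaks lay from 118 to 229 kb from that start, and 4 of them passed 2-fold, all with more signal in the knockout. These 4 were called in the knockout alone and the other 2 in the control alone, a selection that the counting intervals do not cover. The peak at 127 kb fell below 2-fold on the RPM scale (log2 ratio 0.88) and with a pseudocount of 5 (0.996). The peak 144 kb from the start (16664850 to 16665061) had 43 counts in the knockout and 10 in the control (4.49, 2.22 to 10.03), the highest ratio of the 49. That at 136 kb (16672877 to 16673169) had 63 and 18 counts (3.66, 2.14 to 6.56), that at 127 kb (16682362 to 16682840) had 100 and 50 (2.09, 1.47 to 2.996), and that at 229 kb, just beyond the gene, had 41 and 18 (2.38, 1.34 to 4.40). The table annotates those at 127 and 144 kb as intronic and that at 136 kb as a promoter flank, and it measures them from the start of a shorter transcript (ENSMUST00000115850), at distances of -12293, 5008 and -2808 bp. The peak 135 kb from the start, between those at 127 and 136 kb, had 30 counts in the knockout and 37 in the control (0.847, 0.505 to 1.41), and that at 118 kb, nearer the start than all 4, had 52 and 74 (0.734, 0.505 to 1.06). In the order of position from 16580463, the 4 higher peaks had 6.34, 6.65, 9.74 and 15.5 CPM in the knockout and 2.66, 1.48, 2.66 and 7.40 CPM in the control. The strongest promoter peak had 33.7 CPM in the knockout and 31.4 CPM in the control.

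**Figure D4:**
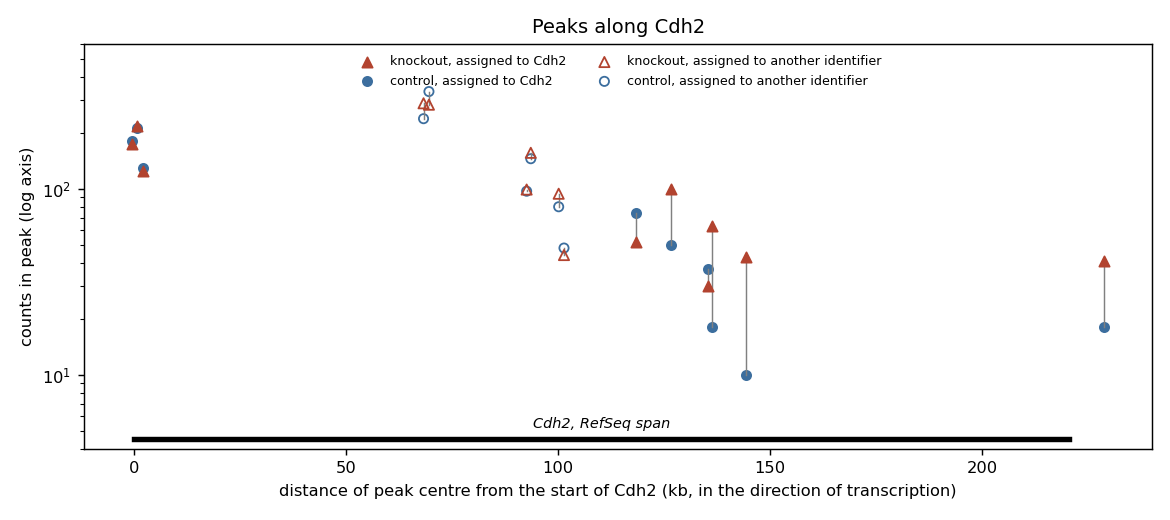
Counts (log axis) in the knockout (triangles) and the control (circles) of each peak along Cdh2, against the distance of the peak's centre from the gene's start in kb. Filled symbols are the 9 peaks assigned to Cdh2 and open symbols the 6 peaks in its introns that the table assigns to another identifier, and grey lines join the libraries. The libraries lie close together at the start and from 68 to 101 kb, and the knockout is higher at 127, 136, 144 and 229 kb.

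Ctnna3 (ENSMUSG00000060843), alpha-T-catenin, links cadherin complexes to actin in the area composita. Its long gene had 7 peaks with 719 counts in the knockout and 869 in the control (0.864, 0.782 to 0.955). The upstream start, whose peak also covers a serine tRNA gene (n-TStga3), had 368 counts in the knockout and 447 in the control (chromosome 10, 63429399 to 63430416, ratio 0.860, 0.747 to 0.990). The next start, 27.6 kb downstream, had 83 and 144 counts (63457348 to 63458077, 0.602, 0.454 to 0.794). Its window, printed above, holds 7 CpG, the median of all windows. A peak 144 kb into the gene, called in the knockout alone beside the start of a short transcript, had 34 counts in the knockout and 17 in the control (2.09, 1.14 to 3.99). The strongest peak outside promoters, 46.3 kb from the start, had 100 and 99 counts (1.06, 0.791 to 1.41).

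At the strongest promoter peak 6 of 9 members had a log2 ratio below 0, where 53.2% of all gene identifiers did, and their median was -0.22, against -0.02 over 14854 identifiers. None passed 2-fold (background 2.04% higher and 2.29% lower). The related genes were counted in the same way. Of 5 other connexins with a promoter peak (of 11 listed), 2 were below 0 and 3 above, from Gjb2 at -0.78 to Gja4, a connexin of arterial endothelium, at 0.44. The Gjb2 peak was called in the control alone. Of 7 other desmosome genes (of 13), 4 were below 0 and 3 above, with a median of -0.08. The largest differences were at the plakin gene Evpl (-0.57), Dsc3 (0.26) and Pkp4 (0.20), and the intermediate filament gene Des was at -0.10. The interval of each of these holds 1. Evpl (25 counts in the knockout and 39 in the control) was called in the control alone and Dsc3 (15 and 13) in the knockout alone. Of 9 other adherens junction genes (of 11), 4 were below 0, with a median of 0.08. In that list Cdh13, T-cadherin, had 62 counts in the knockout and 151 in the control (-1.21), and Cdh15, M-cadherin of skeletal muscle, had 43 and 12 (1.86) in a peak called in the knockout alone. Of 14 other disc genes, 9 were below 0, with a median of -0.10 and the largest differences at Xirp2 (0.62), an actin-binding repeat protein, Cxadr, a tight junction receptor (-0.52), and Ank3 (-0.47), which anchors the sodium channel. The Cxadr peak, called in the control alone, had 36 counts in the knockout and 54 in the control, with an interval of 0.444 to 1.08 that holds 1. On the RPM scale each of these medians is lower by about 0.17.

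**Figure D5:**
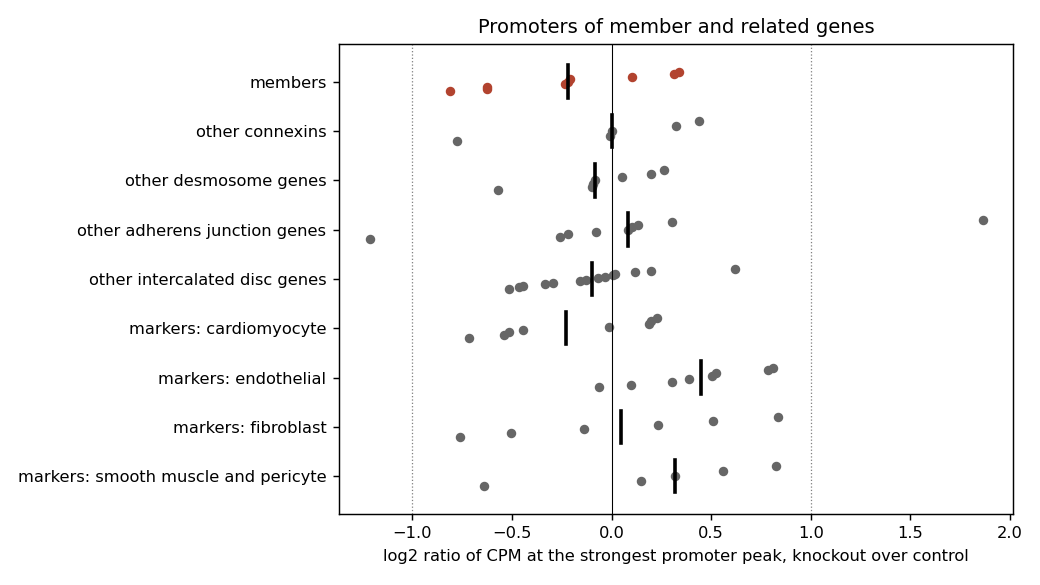
Log2 ratio of CPM at the strongest promoter peak, knockout over control, for the members (top row), the 4 lists of related genes and 4 lists of cell type markers. Points are genes, black bars are medians and dotted lines mark a 2-fold difference. The median lies at -0.22 for the members, -0.23 for the cardiomyocyte markers and 0.45 for the endothelial markers.

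In a whole heart a smaller share of cells of a type cannot be told apart from less open chromatin in each of those cells. Promoter peaks of cardiomyocyte markers summed to 344 CPM in the knockout and 377 in the control, with 5 of 8 below 0. Their median log2 ratio was -0.23, where that of the member promoters was -0.22. Endothelial markers summed to 184 CPM in the knockout and 143 in the control, with 7 of 8 above 0, fibroblast markers to 110 and 90.0 (3 of 6 above) and smooth muscle and pericyte markers to 89.2 and 76.1 (4 of 5 above). Of the atrial markers 2 of 6 had a promoter peak, summing to 46.7 CPM in the knockout and 51.7 in the control (0 of 2 above). Among those without one, Myl4 had no clear match to an identifier and Tbx5 was matched at an overlap of 0.101. Whether the matching accounts for their missing peaks was not tested. Of the conduction system markers 6 of 7 had a promoter peak, with 210 and 203 CPM (3 of 6 above). Of this, Tbx3 held 85.1 CPM in the knockout and 91.5 in the control. Some markers counted here were also matched at low overlaps, namely Tbx3 (0.211), Myl2 (0.285) and Sox17 (0.177). None of the 4 epithelial and none of the 4 myeloid markers had a promoter peak in the table, where the myeloid marker Ptprc was matched at an overlap of 0.03. The part of these values in the ratios of Gja1, Gja5, Cdh2 and the desmosome genes was not tested.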

How the data were processed

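Mouse heart ATAC-seq was analysed from the authors' table of peaks merged over 1 knockout and 1 control library. BWA, MACS2 and the build GRCm38.p6 are named, without versions or steps, in the submitters' processing notes. Read filters, duplicate removal, the Tn5 offset and the unit counted are not stated in the labels, and the count of reads or cuts per peak could shift with each. The deposited counts are whole numbers per peak, not normalized, per the file headers. The authors' RPM equals (count + 1) times 1 constant per library (0.01822 in the knockout, 0.01965 in the control). Their implied totals exceed the counts in peaks, which are 11.8% and 13.3% of them. The deposited fold enrichment, a ratio, was used only as a filter, and the deposited log2 ratio, which is that of the RPM values, was not used. Other columns, per the file headers, hold coordinates and annotation.

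Symbols were matched to identifiers by position in RefSeq GRCm38.p6 (overlap over union at least 0.5 and 2 times the next candidate, or both ends within 1 kb, preferring identifiers with gene ontology terms; otherwise the sole identifier with such terms lying 95% inside the gene). All 10 members matched, with the lowest overlap 0.869, and 85 of 95 other genes. Among those counted at a promoter peak, Sox17, Tbx3, Gjd3, Myl2 and Tjp1 matched by the last rule, at overlaps from 0.177 to 0.324. The preference for ontology terms was added after Pln had gone to an antisense identifier. The promoter sequences printed, of 4 members, came from RefSeq. Named peaks are each member's strongest promoter peak (within 1 kb of a start site), strongest peak outside promoters and every peak past 2-fold; other peaks named were chosen after their values were seen. Members, lists and rules were chosen with earlier results of these data known. Related genes named have the largest differences in their lists, except Des, chosen after its value was seen.

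Ratios used CPM over all peaks with 0.5 counts added, and Clopper-Pearson 95% intervals on the raw counts (Python 3.11.15, pandas 2.3.3, scipy 1.17.1), tested on simulated data. Alternatives were the RPM scale, TMM (edgeR 4.0.16, scaling only), median centring, a loess trend (statsmodels 0.14.6, span 0.3), a pseudocount of 5, filters on signal, calling and fold enrichment (at least 10), a 1.5-fold rule, promoters within 3 kb and other peak sets.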

Additional observations from a re-analysis of the deposited data

How the results depend on the processing

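Without replicates nothing could be left out in turn. No paired analysis was possible because there was 1 library per genotype. The 2 member peaks past 2-fold below the control became 1 with loess, 1 with a pseudocount of 5, 0 in the upper part of signal (30 peaks), 0 among peaks called in both libraries (27 peaks), 12 under the 1.5-fold rule and 4 with the peaks that the table places inside a member but assigns elsewhere. Those at least 2-fold higher (6) numbered 3 with RPM scaling, 3 with a pseudocount of 5, 1 in the upper part of signal, 0 among peaks called in both and 2 without Cdh2. Member peaks below 0 (28 of 49) were 17 of 30 in the upper part of signal and 14 of 27 among peaks called in both; these filters leave fewer peaks. The member median (-0.20) was -0.37 on the RPM scale and lay from -0.22 to -0.15 under the other alternatives run. The sets with peaks inside members and without Cdh2 were chosen after seeing the data. Of all peaks, the count past 2-fold below the control (5201) was 2944 with loess, 678 in the upper part of signal, 327 among peaks called in both, 2034 with a fold enrichment of at least 10 and 11642 at 1.5-fold, and that above it (3537) was 2326 with RPM scaling, 610 in the upper part of signal, 272 among peaks called in both, 1173 with that enrichment and 8381 at 1.5-fold. The median of all peaks (-0.05) was -0.22 on the RPM scale, 0.00040 with TMM, 0 with median centring by construction, 0.0060 with loess, -0.046 with a pseudocount of 5, -0.00045 in the upper part of signal and 0.0091 among peaks called in both. Of 69 alternative values for the summed counts of the 10 genes, 4 moved beyond the counting interval: on the RPM scale Jup (-0.041), Cdh2 (0.10) and Ctnna3 (-0.38), and among peaks called in both Cdh2 (0.049), where its higher peaks are left out. Among peaks called in both, Gjc1 stayed within its counting interval but turned in sign, at 0.02 in place of -0.28. None of 63 values for strongest promoter peaks and none of 130 for named peaks moved beyond the counting interval. RPM scaling, TMM and median centring move every log2 ratio by a nearly constant amount, so where intervals are wide this outcome says little. Some named peaks crossed 2-fold: Dsc2 over the start site (-0.82 with loess), and Dsg2 at 8.65 kb and Ctnna3 at 144 kb (each 0.85 with RPM scaling). The RPM scale also turned the sign of the strongest promoter peak of Cdh2 (-0.07) and of the strongest peaks outside promoters of Jup (-0.04), Cdh2 (-0.17) and Ctnna3 (-0.09). Where not named, the cause was not tested. An overlap rule for shared peaks was not run, since the table holds merged peaks. Weak peaks limit what single ratios show: the Cdh2 peak with the highest ratio had 10 counts in the control.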

Other observations

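The table places 23 further peaks inside transcripts of Gja5, Dsp, Pkp2, Cdh2 and Ctnna3 but assigns them to identifiers with nearer start sites. They were examined after the values of the assigned peaks were known. Of these, 13 had a log2 ratio below 0 (54.1% of all peaks), 3 were at least 2-fold higher (6.09%) and 2 at least 2-fold lower (8.96%), with a median of -0.17, against -0.05 over all peaks. The 3 higher peaks were called in the knockout alone, where 35.3% of all peaks are at least 2-fold higher. The 2 lower peaks were called in the control alone, where 28.9% are at least 2-fold lower. The 5 inside Gja5 transcripts went both ways, with 2 at least 2-fold higher, 2 at least 2-fold lower and a median of 0.18.

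Inside Dsp, a pair of intron peaks 11.6 and 13.8 kb from the start had 92 and 41 counts in the knockout, against 149 and 67 in the control (0.645, 0.492 to 0.842, and 0.639, 0.423 to 0.957). Another peak lies 1.52 kb from the Dsp start but is annotated as the promoter of another identifier and was not counted above. It was called in both libraries, with 87 counts in the knockout and 89 in the control (1.02, 0.751 to 1.39). Inside Pkp2, the intron peak 40.6 kb from the start had 60 counts in the knockout and 99 in the control (0.633, 0.452 to 0.881), and that at 43.5 kb had 164 and 168 (1.02, 0.817 to 1.27). The 6 peaks inside Cdh2, from 68.3 to 101 kb, had log2 ratios from -0.17 to 0.34, with the strongest pair at 283 and 288 counts in the knockout, against 333 and 238 in the control. Inside Ctnna3, 6 of 8 were below 0. A peak assigned to the nested gene Lrrtm3, 619 kb from the start and called in the knockout alone, had 62 counts in the knockout and 25 in the control (2.59, 1.60 to 4.30).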
